A study of Arabidopsis thaliana with 6 samples.

Results

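The kinase genes described here are the 42 probe sets, of 22810 on the Affymetrix ATH1 array, that the authors listed as up (35) or down (7), that carry 1 gene identifier and that are annotated with protein kinase activity. The immune genes LYK5, SOBIR1, RLP23 and MPK3 were set aside. The authors listed 567 probe sets, 541 of them with 1 gene found in NCBI RefSeq, and 47 held the kinase annotation. Besides LYK5, SOBIR1 and MPK3, 2 of these were left out because they carry several genes.

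Protein kinases attach phosphate to other proteins, and plants carry unusually large families of them. Most receptor-like kinases sit in a membrane with an outer domain that senses a ligand and an inner kinase domain. MAP kinases pass a signal on in tiers inside the cell, and calcium-dependent and SnRK2 kinases respond to calcium, abscisic acid or osmotic stress. In leaves these families are known for roles in immunity, drought and salt responses.

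The series compared Arabidopsis thaliana plants of the ANAC069 overexpression line OE-3 with plants of the knockout line KO-2, which carries the insertion SALK_095231C in ANAC069, a NAC-domain transcription factor gene. All plants were 4 weeks old and had received 200 mM NaCl for 3 h before total RNA was taken. Each genotype was 1 line, read on 3 arrays that the series calls independent biological replicates. The labels do not name the promoter of the overexpression construct. No wild-type or untreated plants were analysed here, so each value is a difference between the lines under salt. ANAC069 itself, listed as NAC069, had signals of 2991, 2386 and 2360.2 in the OE arrays, against 386, 364 and 391 in the KO arrays. Only probe sets in the authors' up and down tables carry gene names here. None of the 18 leaf, root, flower and seed marker genes looked for is among them, so the tissue was not checked. In whole tissue, fewer cells of a type and less RNA per cell cannot be told apart.

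Signals are the authors' MAS5 intensities, in linear units. Fold changes are differences of log2(signal + 16), OE minus KO, from a limma fit over 15922 probe sets, with the standard error (SE) of that fit. The kinase genes were chosen by the authors' fold and p-value on these same 6 arrays. Their differences between OE and KO are therefore a description, and no test of them is offered. In the authors' deposited table the folds nearest to the limit of 2 were those of SERK1 (2.003), AT4G08850, CCR2, CRK4 and TMKL1 (2.02 each). CRK37 had the p-value nearest to the limit of 0.05 (0.0479). Another 152 probe sets outside the tables had a fold between 1.9 and 2 and an unadjusted p under 0.05. No gene names were used for these.

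All 35 up-listed kinase genes had each OE array above each KO array, which held for 12.9% of all probe sets tested. All 7 down-listed genes had each OE array below each KO array, against 18.3% of all tested. Of the 35, 29 had an adjusted p under 0.05 in limma and were higher in OE, while 3.03% of all tested did. Of the 7, 2 had an adjusted p under 0.05 and were lower in OE, while 1.84% of all tested did. In either direction 31 of the 42 passed, against 4.87% of all tested. With each array shifted to the same median, 35 were higher and 1 lower, a scaling that moved the median of all tested probe sets from -0.08 to 0.09. Since the authors listed these genes for this same difference, nothing is read from these shares.

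The up-listed kinase genes had a median log2 fold change of 1.22 and ran between 0.92 for AT1G34420 and 1.99 for CRK23. The other 287 up-listed genes had a median of 1.35, with 239 under the same adjusted limit. The 7 down-listed kinase genes had a median of -0.96, and the other 212 down-listed genes had one of -1.08, with 116 under the limit. All tested probe sets had a median of -0.08. Of the kinase genes, 83.3% were listed as up, against 57.5% of the other 499 listed genes.

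**Figure D1:**
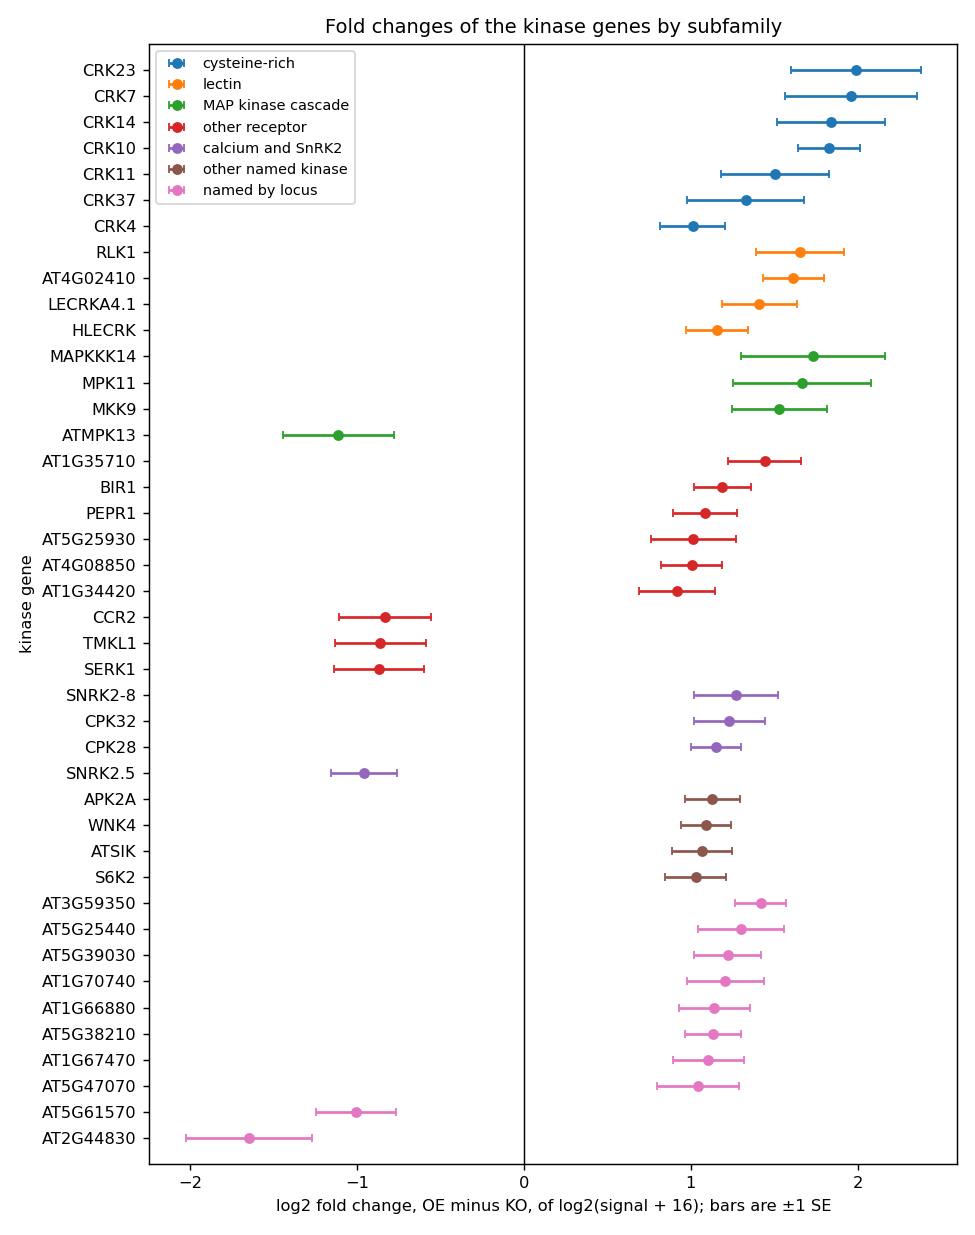
Log2 fold change, OE minus KO, of log2(signal + 16) for each of the 42 kinase genes, grouped by subfamily, with bars of 1 SE from limma (3 OE and 3 KO arrays). The cysteine-rich genes CRK23 (1.99) and CRK7 (1.96) lie farthest to the right, and AT2G44830 (-1.65) farthest to the left.

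Cysteine-rich receptor-like kinases (CRKs), which carry conserved cysteine motifs in the outer domain and are linked to defence and oxidative stress, made up 7 of the 42 genes and were all listed as up. Their log2 fold changes had a median of 1.83. Of the 7, 6 were higher in OE at an adjusted p under 0.05, against 3.03% of all tested. Of the other 287 up-listed genes 83.3% were under that limit, and nothing is read from the count. CRK23 (AT4G23310), annotated with defence response, had signals of 108, 211 and 172 in the OE arrays, against 19.3, 15.6 and 59.8 in the KO arrays. The KO signals of CRK23 were near the dim end, where adding 16 shrinks a fold change, and its log2 fold change was 1.99 (SE 0.39). CRK7 (AT4G23150) read 388, 604 and 501 in the OE arrays, against 67.2, 84.9 and 246 in the KO arrays, with a log2 fold change of 1.96 (SE 0.40). KO replicate 3 was the highest KO array for both genes but stayed below each OE array.

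CRK14 (AT4G23220) gave 721, 629.9 and 1414 in the OE arrays, against 236, 164 and 311 in the KO arrays, and OE replicate 3 stood well above the other OE arrays. Its log2 fold change was 1.84 (SE 0.32). CRK10 (AT4G23180), annotated to the plasma membrane, gave 4834, 6509 and 7961 in the OE arrays, against 1914, 1659 and 1735 in the KO arrays. The KO arrays of CRK10 lay close together, and its log2 fold change of 1.83 (SE 0.19) had the smallest SE among the CRKs. Without each of the 6 arrays in turn, CRK10 kept an adjusted p under 0.05 in limma each time, the only CRK to do so. CRK23, CRK7, CRK14 and CRK4 were under it in 3 of the 6 fits, CRK11 in 2 and CRK37 in 1. With a control ratio of RNA quality as a covariate, described below, CRK10 and CRK14 were the 2 CRKs under the limit.

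CRK11 (AT4G23190), annotated with the response to oxidative stress, had signals of 148, 207 and 136 in the OE arrays, against 48.3, 24.9 and 76.7 in the KO arrays, with a log2 fold change of 1.50 (SE 0.33). CRK37 (AT4G04500) read 359.6, 380.2 and 327 in the OE arrays, against 86.7, 96.7 and 263 in the KO arrays, with a log2 fold change of 1.33 (SE 0.35). The groups of CRK37 did not overlap, although its KO replicate 3 came close to the lowest OE array, and it was the CRK that missed the adjusted limit. CRK4 (AT3G45860), annotated with defence response and programmed cell death, had signals of 3103, 4234 and 3002 in the OE arrays, against 1508, 1463 and 2159 in the KO arrays, and its log2 fold change was 1.01 (SE 0.20).

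The KO array with the highest signal was replicate 3 for 6 of the 7 CRK genes, all but CRK10. Over all tested probe sets KO replicate 3 was the highest KO array in 34.8%, and over the other 287 up-listed genes in 43.2%. The median signal of the whole array was 158.8, 149.9 and 157.4 in OE replicates 1, 2 and 3 and 162.0, 182.2 and 186.1 in KO replicates 1, 2 and 3, and its part in the CRK values was not tested. On the log2(signal + 16) scale KO replicate 3 lay above the KO mean by 1.01 for CRK7 and 0.92 for CRK37. For CRK23 that array lay above by 0.79 and for CRK11 by 0.57. Once that array was left out, CRK37 had an adjusted p under 0.05 in limma. Without KO replicate 3 the log2 fold change was 2.46 for CRK7, 1.79 for CRK37 and 2.38 for CRK23, with all arrays 1.96, 1.33 and 1.99. Among the OE arrays, replicate 2 was the highest for 5 CRK genes and replicate 3 for CRK14 and CRK10.

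**Figure D2:**
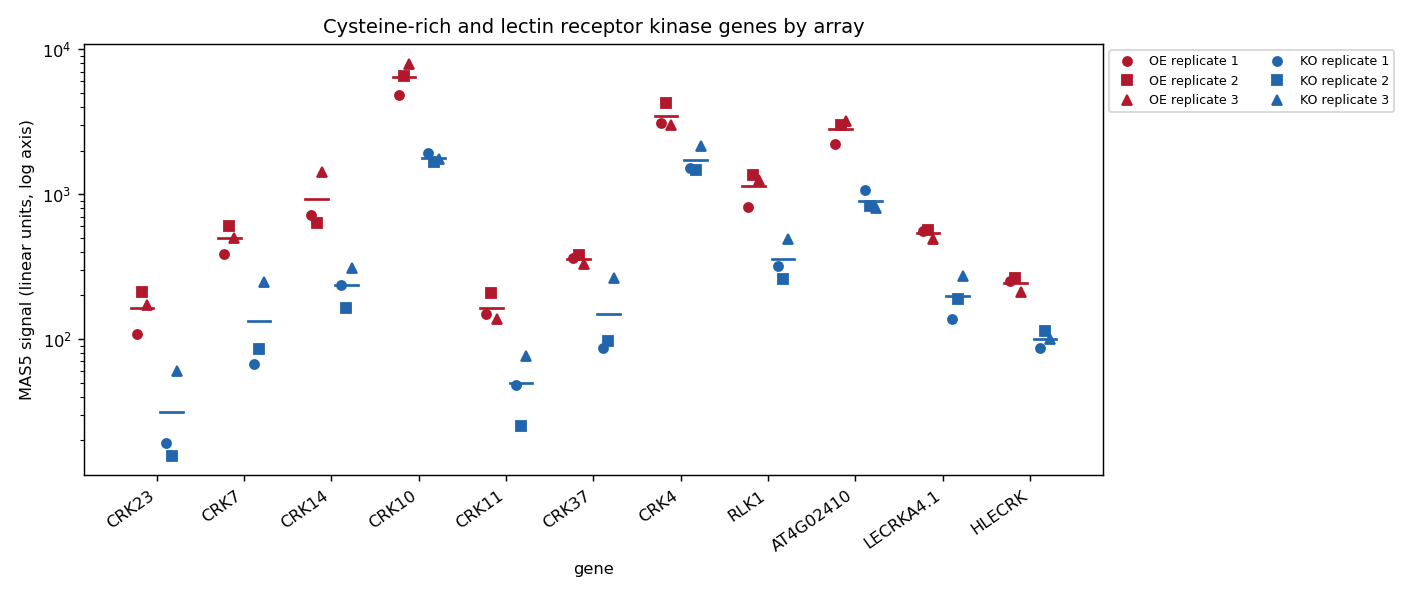
MAS5 signal (linear units, log axis) of the 7 cysteine-rich and 4 lectin receptor kinase genes on each array, OE in red left of KO in blue, with a line at each mean of 3 arrays. Each OE point lies above each KO point of its gene, and the KO triangles (replicate 3) lie above the other KO points for 6 of the 7 CRK genes.

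Of the 7 CRK genes, 5 lie in 1 stretch of chromosome 4. In the authors' deposited table, whose genome build the labels do not name, CRK7 aligns to chr4:12125730-12128301 on the plus strand and CRK10 to chr4:12138203-12140780 on the plus strand. CRK11 aligns to chr4:12141531-12143710 and CRK14 to chr4:12154090-12156533, both on the minus strand, and CRK23 to chr4:12185736-12188763 on the plus strand. By RefSeq's gene order (TAIR10.1, used for order only) the stretch that starts at CRK5 and ends at CRK24 holds 21 protein-coding genes, 20 of them CRKs, and 5 of these 20 are among the genes described here. CRK10 and CRK11 are direct neighbours. Whether the probes of a CRK gene also read RNA of similar neighbours was not tested.

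Lectin receptor kinases, whose outer domain resembles sugar-binding proteins, gave 4 up-listed genes, each annotated with sugar binding. The median log2 fold change was 1.51. All 4 were higher in OE at an adjusted p under 0.05, against 3.03% of all tested and 83.3% of the other 287 up-listed genes. The authors listed them for this same difference, so nothing is read from the count. RLK1 (AT5G60900), whose title in the deposited table says carbohydrate binding, had signals of 812, 1358 and 1259.7 in the OE arrays, against 317, 261 and 487 in the KO arrays, with a log2 fold change of 1.66 (SE 0.26). AT4G02410, listed in RefSeq as LecRK-IV.3, read 2211, 2987 and 3215 in the OE arrays, against 1074, 830.4 and 803 in the KO arrays, and its log2 fold change was 1.61 (SE 0.18). It kept an adjusted p under 0.05 in limma without each array in turn.

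LECRKA4.1 (AT5G01540), also called LecRK-VI.2 and annotated with abscisic acid signalling, read 553, 569.8 and 489 in the OE arrays, against 137, 189 and 270.2 in the KO arrays, with a log2 fold change of 1.41 (SE 0.23). HLECRK (AT3G59700), or L-type lectin receptor kinase V.5, gave 253, 266 and 210.0 in the OE arrays, against 86.7, 113 and 101 in the KO arrays, and its log2 fold change was 1.16 (SE 0.18). The OE arrays of both were close together, and the KO arrays of LECRKA4.1 were farther apart than those of HLECRK.

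The MAP kinase cascade was represented at each of its tiers, with 3 genes listed as up and 1 as down. MAPKKK14 (AT2G30040), an upper-tier kinase gene, had signals of 351, 214 and 682 in the OE arrays, against 71.8, 179 and 77.9 in the KO arrays. Its OE replicate 2 was only slightly above KO replicate 2, and its log2 fold change of 1.73 (SE 0.43) missed the adjusted limit with all arrays and without any 1 of them. MKK9 (AT1G73500), the middle-tier kinase gene annotated with responses to salt and wounding and with ethylene synthesis, read 2413, 3675 and 3364 in the OE arrays, against 695, 1578 and 1094 in the KO arrays, with a log2 fold change of 1.53 (SE 0.29). The groups of MKK9 did not overlap, and KO replicate 2 was its highest KO array.

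MPK11 (AT1G01560), a MAP kinase annotated with the response to abscisic acid, had signals of 275, 532 and 1020.0 in the OE arrays, against 123, 145 and 217 in the KO arrays. Its OE arrays spread widely, OE replicate 1 stood near the KO arrays, and its log2 fold change of 1.67 (SE 0.41) missed the adjusted limit. ATMPK13 (AT1G07880), known for a part in lateral root formation, was listed as down and read 39.7, 21.2 and 34.5 in the OE arrays, against 55.6, 87.5 and 126 in the KO arrays, with a log2 fold change of -1.11 (SE 0.33). All its signals were dim, and it too missed the adjusted limit. Of the 4 MAP kinase cascade genes, only MKK9 had an adjusted p under 0.05, against 4.87% of all tested in either direction.

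In a list of 41 MAP kinase cascade loci that includes phosphatases and substrates, 5 had a named probe set, 3 of them among the genes above. The other two were MPK3, set aside here, and the MAP kinase substrate gene MKS1. MPK3 had 5110.3, 5955 and 5070.2 in the OE arrays, against 2490.2, 2535 and 2667 in the KO arrays and a log2 fold change of 1.06 (SE 0.12). MKS1 had 758, 695 and 615 in the OE arrays, against 199.5, 338 and 337 in the KO arrays and a log2 fold change of 1.23 (SE 0.21). Neither gene had overlapping groups. A locus has a named probe set here only if the authors listed it as up (4 of the 5) or down (1). Of the 5, 3 were higher in OE and 0 lower at an adjusted p under 0.05 in limma, against 3.03% and 1.84% of all tested, and that choice fixes what the count can show. The other loci of the list were not analysed.

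**Figure D3:**
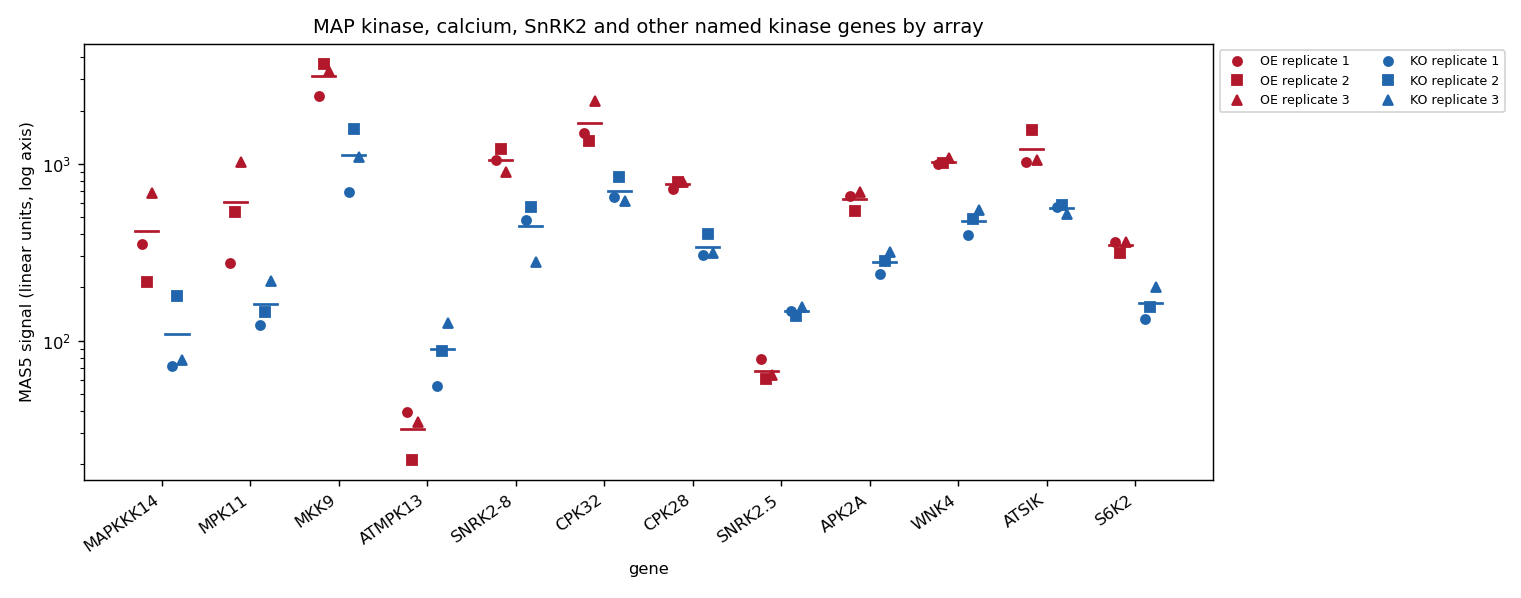
MAS5 signal (linear units, log axis) of the MAP kinase cascade, calcium-dependent, SnRK2 and other named kinase genes on each array, OE in red left of KO in blue, with a line at each mean of 3 arrays. ATMPK13 and SNRK2.5 have the OE points below the KO points, and the other genes have them above, with the widest OE spread in MPK11 and MAPKKK14.

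Other receptor kinases came to 9 genes, of which 6 were listed as up and 3 as down. BIR1 (AT5G48380), a receptor-like kinase that binds the co-receptor BAK1 and restrains defence, had signals of 2496, 3178 and 3972 in the OE arrays, against 1389.5, 1319 and 1421 in the KO arrays. Its KO arrays were nearly equal, and its log2 fold change was 1.19 (SE 0.17). PEPR1 (AT1G73080), the receptor of the wound-released Pep peptides, read 596, 513 and 792 in the OE arrays, against 239, 311 and 312 in the KO arrays, with a log2 fold change of 1.09 (SE 0.19). For both genes each OE array was clear of the KO arrays.

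A further 4 up-listed genes are named by locus and annotated with receptor activity. AT1G35710 had signals of 3078, 5230.4 and 4499 in the OE arrays, against 1581, 1247 and 1800.2 in the KO arrays, with a log2 fold change of 1.44 (SE 0.22). AT4G08850 read 2883, 2388 and 2257 in the OE arrays, against 1278, 972 and 1516 in the KO arrays, and its log2 fold change was 1.01 (SE 0.18). AT5G25930 gave 463, 441 and 483 in the OE arrays, against 168, 179.5 and 351 in the KO arrays, and its log2 fold change was 1.02 (SE 0.26). KO replicate 3 of AT5G25930 stood well above the other KO arrays, much as for CRK37, and the gene missed the adjusted limit. AT1G34420 read 157, 150.1 and 209 in the OE arrays, against 66.6, 77.4 and 108 in the KO arrays, with a log2 fold change of 0.92 (SE 0.23) that missed it too. For all 6 up-listed genes of this group KO replicate 3 was the highest KO array.

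The 3 down-listed receptor kinase genes were dim. None had an adjusted p under 0.05 in limma, while 1.84% of all tested were lower at that limit. SERK1 (AT1G71830), a co-receptor of brassinosteroid signalling and anther development, read 73.8, 101 and 56.1 in the OE arrays, against 109, 187 and 164 in the KO arrays, with a log2 fold change of -0.87 (SE 0.27). TMKL1 (AT3G24660), a transmembrane kinase-like gene, gave 79.0, 50.9 and 56.9 in the OE arrays, against 85.5, 152 and 146 in the KO arrays, with a log2 fold change of -0.86 (SE 0.27). CCR2 (AT2G39180), related to the CRINKLY4 receptor kinase of maize, gave 63.4, 42.0 and 50.9 in the OE arrays, against 73.5, 140.0 and 109 in the KO arrays, with a log2 fold change of -0.83 (SE 0.28). In SERK1 and TMKL1 the highest OE array nearly reached the lowest KO array, which was replicate 1 in each. Of 23 loci in a list of pattern recognition receptors and partners, BIR1, PEPR1 and SERK1 are the 3 that the authors listed and that are therefore named here. Of these, 2 were higher in OE and 0 lower at the adjusted limit, against 3.03% and 1.84% of all tested. Nothing is read from it. The list does not hold LYK5 and SOBIR1, which were set aside here and which the authors also listed as up.

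Calcium-dependent kinases link calcium signals to phosphorylation, and 2 of them were listed as up. CPK32 (AT3G57530), annotated with responses to salt and abscisic acid signalling, had signals of 1493, 1348 and 2262 in the OE arrays, against 649, 843 and 619.6 in the KO arrays, with a log2 fold change of 1.23 (SE 0.21). CPK28 (AT5G66210), known to limit immune signalling by acting on the kinase BIK1, read 722, 791 and 789.6 in the OE arrays, against 304, 402 and 313 in the KO arrays, and its log2 fold change was 1.15 (SE 0.15). The OE arrays of CPK28 were close together, while OE replicate 3 stood apart for CPK32. A list of 24 loci of calcium-dependent and CBL-interacting kinases, SOS2 of the salt overly sensitive pathway among them, had these 2 as its named genes, since only genes that the authors listed are named. Both were in the up table and higher at the adjusted limit, against 3.03% of all tested, and nothing is read from it.

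SnRK2 kinases are activated by osmotic stress, and 2 of the 10 genes in a list of them were in the authors' tables, 1 as up and 1 as down. SNRK2-8 (AT1G78290), annotated with the response to osmotic stress, had signals of 1044, 1220.3 and 896 in the OE arrays, against 481, 568 and 278 in the KO arrays, and its log2 fold change of 1.27 (SE 0.25) was positive. SNRK2.5 (AT5G63650), annotated with responses to osmotic and salt stress, read 78.8, 61.1 and 63.8 in the OE arrays, against 147, 138 and 155 in the KO arrays, with a log2 fold change of -0.96 (SE 0.20). KO replicate 3 was the lowest KO array for SNRK2-8, whereas the KO arrays of SNRK2.5 were close together. SNRK2-8 was higher and SNRK2.5 lower in OE at the adjusted limit in limma. SNRK2-8 did not keep that call without OE replicate 2, OE replicate 3 or KO replicate 2, or with a control ratio of RNA quality as a covariate. SNRK2.5 kept its call when OE replicate 1 or KO replicate 1 was left out but not when any of the other 4 arrays was, and its log2 fold change was between -1.05 and -0.90 without each array in turn.

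Another 4 named kinase genes were all listed as up and had an adjusted p under 0.05. Of all tested 3.03% were higher at that limit, and 83.3% of the other 287 up-listed genes were under it. Nothing is read from the count. APK2A (AT1G14370), also known as PBL2 and a cytoplasmic partner kinase of immune receptors, had signals of 655, 541 and 690.0 in the OE arrays, against 238, 282 and 318 in the KO arrays, with a log2 fold change of 1.13 (SE 0.16). WNK4 (AT5G58350), of the kinases that lack the usual catalytic lysine, read 992, 1012 and 1076 in the OE arrays, against 396, 487 and 551 in the KO arrays, and its log2 fold change was 1.09 (SE 0.15). The OE arrays of WNK4 were within a narrow range, and OE replicate 2 was the low array of APK2A. S6K2 (AT3G08720), a kinase of ribosomal protein S6 annotated with responses to heat, cold and salt, gave 363, 311 and 364 in the OE arrays, against 133, 155 and 202 in the KO arrays, and its log2 fold change was 1.03 (SE 0.18). ATSIK (AT3G08760) read 1023, 1556 and 1051 in the OE arrays, against 574, 582 and 523 in the KO arrays, with a log2 fold change of 1.07 (SE 0.18), and OE replicate 2 was the high array. S6K2 and ATSIK lie near each other on chromosome 3 with 3 protein-coding genes between them in RefSeq's order.

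The last 10 genes are named by locus, with no title in the deposited tables and no family name in RefSeq, and 8 were listed as up. AT3G59350, annotated to the plasma membrane, had signals of 982, 1049.6 and 1174 in the OE arrays, against 348, 369 and 458 in the KO arrays, with a log2 fold change of 1.42 (SE 0.15). It is the third gene, with CRK10 and AT4G02410, that kept an adjusted p under 0.05 in limma without each array in turn. AT5G25440 read 398, 431 and 745 in the OE arrays, against 198, 156 and 241 in the KO arrays, and its log2 fold change was 1.30 (SE 0.26). AT5G39030 gave 549, 711 and 719 in the OE arrays, against 359.8, 233 and 239 in the KO arrays, and its log2 fold change was 1.22 (SE 0.20). In AT5G25440 OE replicate 3 was the high array, and in AT5G39030 KO replicate 1 was.

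AT1G70740 read 279, 496 and 457 in the OE arrays, against 196, 149 and 149.8 in the KO arrays, with a log2 fold change of 1.21 (SE 0.23). AT1G66880, annotated to the plasma membrane, had signals of 854, 1006 and 1328 in the OE arrays, against 413, 406 and 598 in the KO arrays, and its log2 fold change was 1.14 (SE 0.21). The groups were apart in both, and OE replicate 1 was the lowest OE array of each. AT5G38210 gave 443, 557 and 475 in the OE arrays, against 225, 181 and 243 in the KO arrays, and its log2 fold change was 1.13 (SE 0.17). AT1G67470 read 309, 418 and 552 in the OE arrays, against 170.2, 185 and 200.3 in the KO arrays, a fitted ratio of 2.15 for OE over KO. OE replicate 1 was again the lowest OE array in both. AT5G47070 had a log2 fold change of 1.04 (SE 0.25) and was the one up-listed gene of these 8 that missed the adjusted limit.

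The pair of down-listed genes named by locus had the largest and the third largest difference of the 7 down-listed genes. AT2G44830, annotated to the nucleus and the plasma membrane, read 56.0, 30.7 and 40.7 in the OE arrays, against 84.4, 199 and 256 in the KO arrays, with a log2 fold change of -1.65 (SE 0.38). Its KO replicate 1 lay well below the other KO arrays but above each OE array, and it had an adjusted p under 0.05 in limma. It kept that call when OE replicate 1 or KO replicate 1 was left out, but not when any of the other 4 arrays was. AT5G61570 had a log2 fold change of -1.01 (SE 0.24) and missed the limit. No signal of a down-listed gene was above 256 on any array.

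The genes were chosen by the Gene Ontology term for protein kinase activity. Other terms of the same deposited annotation placed many of these genes in membranes. Such terms, receptor activity among them, are not independent of that choice. Plasma membrane was given for 14 of 42 (33.3%), against 54 of the other 499 listed genes (10.8%), and receptor activity for 18. A nuclear location was given for 7 of 42 (16.7%), against 101 of the others (20.2%). Defence response was annotated to 3 kinase genes, CRK23, PEPR1 and CRK4 (7.14%), and to 33 of the others (6.61%). Response to salt stress was annotated to MKK9, CPK32, S6K2 and SNRK2.5 (9.52%), and to 10 of the others. The response to chitin was annotated to 0 of the kinase genes and to 44 of the others (8.82%). The terms of PEPR1 and SERK1 are cut off at a fixed length in these tables, so they may lack some. These shares are descriptions without a test.

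The up-listed kinase genes also shared which array of a genotype was high. OE replicate 1 was the highest OE array for 1 of the 35, OE replicate 2 for 15 and OE replicate 3 for 19, while each OE array was the highest for between 30.6% and 35.1% of all tested probe sets. For the other 287 up-listed genes OE replicate 1 was the highest OE array in 9.76%, replicate 2 in 33.8% and replicate 3 in 56.4%. KO replicate 3 was the highest KO array for 23 of the 35 (65.7%). It was so for 34.8% of all tested and for 43.2% of the other up-listed genes. The median log2 deviation of the 35 from the genotype mean was -0.15, 0.05 and 0.13 in OE replicates 1, 2 and 3, and -0.14, -0.09 and 0.21 in KO replicates 1, 2 and 3. The other 287 up-listed genes had -0.17, 0.02 and 0.19 in OE and -0.20, 0.08 and 0.11 in KO. Both groups of genes thus had their lowest OE level in OE replicate 1 and their lowest KO level in KO replicate 1. For the 7 down-listed kinase genes OE replicate 1 was the highest OE array in 5. KO replicate 1 was their highest KO array in 0. The other 212 down-listed genes had these in 58.5% and 12.7%, so the trait is not particular to the kinase genes.

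**Figure D4:**
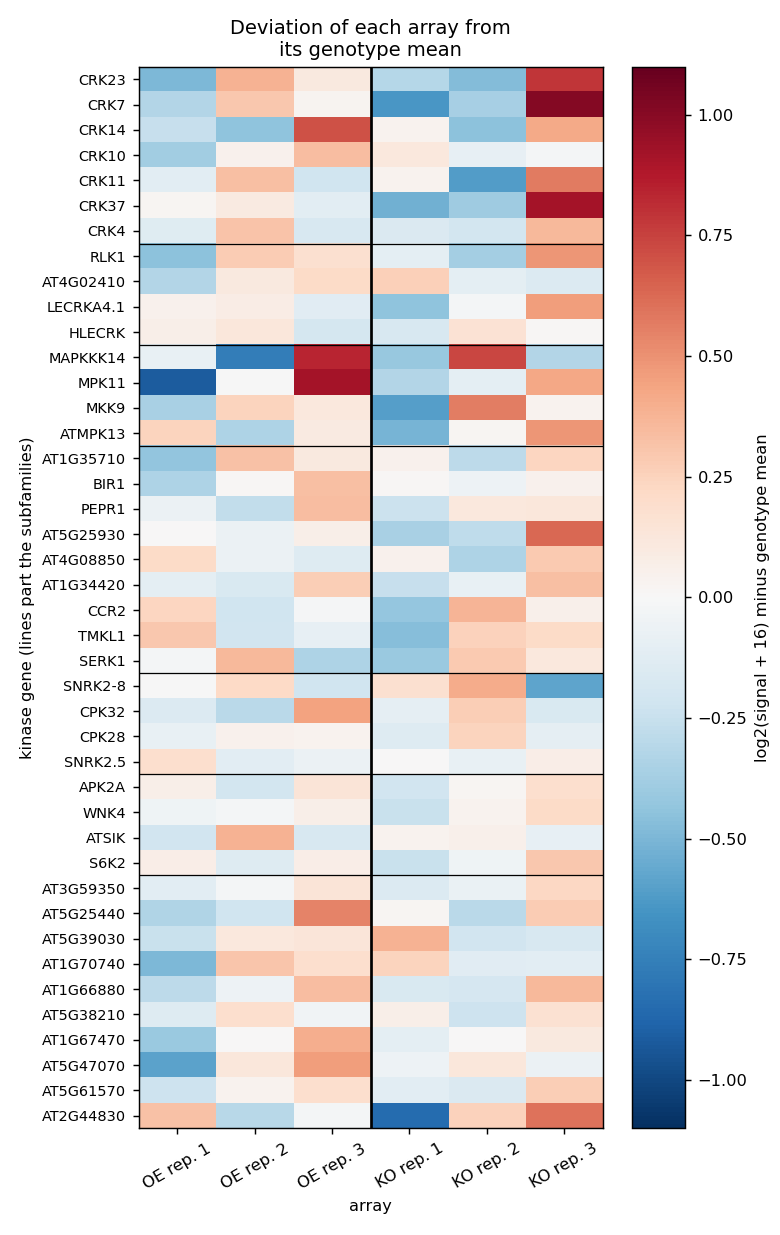
Difference of each array from its genotype mean, as log2(signal + 16), for the 42 kinase genes (rows, with lines between subfamilies) on the 3 OE and 3 KO arrays (columns). Red is above and blue below the mean, and KO replicate 3 is the highest KO array for 27 of the 42.

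Calls depended on which arrays were used, for the kinase genes and for all 15922 probe sets tested. Of all tested, 509, 66 and 88 were higher at the adjusted limit without OE replicates 1, 2 and 3. Those lower were 587, 7 and 11. Without KO replicates 1, 2 and 3, 548, 153 and 243 of all tested were higher and 852, 7 and 37 lower. Without OE replicates 1, 2 and 3 in turn, limma placed 30, 4 and 4 of the 35 up-listed kinase genes under an adjusted p of 0.05, and without KO replicates 1, 2 and 3 it placed 29, 7 and 23 there. For the 7 down-listed genes the numbers were 2, 0 and 0 without OE replicates 1, 2 and 3, and 5, 0 and 0 without KO replicates 1, 2 and 3. Of all 42, 3 genes passed in each of the 6 fits, and 4 genes (MAPKKK14, AT1G34420, CCR2 and AT5G61570) passed in none. No kinase gene changed direction in these fits, and none could, since the OE and KO signals of each gene did not overlap.

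The ratio of 3' to 5' control signal, used here as a sign of RNA quality, was on average higher in OE. A higher ratio does not mean better RNA. The mean log2 ratio of 3' to 5' signal over 6 control probe pairs was 1.97, 1.94 and 1.73 in the OE arrays, against 1.80, 1.57 and 1.53 in the KO arrays. The difference was 0.25 (exact permutation p = 0.2, two-sided, n = 3 each, where 0.1 is the smallest p the design allows). For the mean, KO replicate 1 was above OE replicate 3, so the groups overlapped. Each of the 6 pairs had a higher mean in OE, and in 3 of them (both GAPDH pairs and 1 actin pair) the OE arrays all lay above the KO arrays, with differences of 0.36, 0.23 and 0.46. With this ratio as a covariate, 189 of all tested were higher and 19 lower at the adjusted limit, against 483 and 293 without it. In that fit 14 up-listed and 0 down-listed kinase genes had an adjusted p under 0.05 in limma, against 29 and 2 without it. CRK10, CRK14, AT4G02410, MPK11, MKK9, CPK32, CPK28, BIR1, PEPR1, APK2A, WNK4, AT3G59350, AT1G66880 and AT1G67470 were those 14, of which MPK11 had missed the limit without the covariate.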

How the data were processed

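Total RNA of 3 OE and 3 KO plant samples was read on ATH1 arrays. The authors deposited MAS5 intensity values (per the submitters' processing notes, version not given in the sources used here), scaled from the values to a trimmed mean of 500.0 per array, with medians between 149.9 and 186.1. The number of arrays limits the precision. The authors also deposited lists of up and down probe sets giving each one's absolute fold and p-value, whose direction was read from the signals. A further 48 per-array columns in those lists match no sample label and were not used.

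Groups came from the sample titles. limma 3.58.1 in R 4.3.3 compared the groups with a variance trend on log2(signal + 16) and no other covariate, without 64 control probe sets and the dimmest 30%, which left 15922 and all 42 kinase genes. P-values are two-sided and Benjamini-Hochberg adjusted, with a limit of 0.05. Control ratios were compared by exact permutation (SciPy 1.17.1). In simulated arrays for this comparison, limma recovered 54.8% of 93 probe sets changed 2-fold and 87.5% of 96 changed 4-fold, with 5 false calls, among 15922. The simulated noise was independent between probe sets, with no shift shared by a whole array. The recovery and false calls may therefore not hold for the real arrays.

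The kinase genes, subfamilies and 6 gene lists were chosen with earlier results of these data known. Names came from the deposited tables and RefSeq (27 of 42 with a symbol other than the locus). Subfamilies follow the 19 titles given, RefSeq synonyms or Gene Ontology terms. All 42 genes are named, with signals for those with the largest differences in each subfamily (up to 8 in groups of 8 or more, up to 5 in smaller ones), and, chosen after their values were seen, for the remaining cysteine-rich and receptor genes. A list of 14 growth and cell cycle kinases had 0 genes in the authors' tables, and only listed genes are named here. The 34-locus CRK list held the 7 CRKs described. Alternatives were other pseudocounts, filters and scalings, a replicate block, no trend, the control ratio as covariate and each array left out.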

Additional observations from a re-analysis of the deposited data

How the results depend on the processing

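With all arrays 29 kinase genes were higher and 2 lower, among 483 higher and 293 lower probe sets, and the median log2 fold changes were 1.22 and -0.96. Pseudocount 1 kept these counts within 1.5 times. Pseudocount 64 moved the down-listed median to -0.66. The rank of CRK23 depended on this setting. Its log2 fold change was 2.535 with pseudocount 1 and 1.254 with pseudocount 64, where CRK10 (1.799) was the highest. Without a filter the counts were 19 and 0 kinase genes, and 261 and 76 probe sets. The filter at the 50th percentile removed all 7 down-listed genes and also CRK23, CRK11, HLECRK and AT1G34420. It gave 30 higher and 0 lower kinase genes of 31 tested, and no down-listed median could be given. Shifting arrays to the same median moved the median of all tested probe sets to 0.09 and gave 35 higher and 1 lower kinase genes, among 794 and 143 (84.7% higher, against 62.2% as deposited), and quantile normalization gave 1 lower. Without a trend 14 and 1 kinase genes passed, among 161 and 43. The control ratio as a covariate gave 14 and 0, among 189 and 19, with MPK11 newly under the limit, and moved the up-listed median to 1.51. Leaving out each array in turn gave 4 to 30 higher and 0 to 5 lower kinase genes, among 66 to 548 and 7 to 852. The lowest counts came without OE replicate 2 for higher probe sets and without OE replicate 2 or KO replicate 2 for lower ones. The cause was not tested.

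The replicate block gave 21 higher and 0 lower kinase genes, among 238 and 37, with MPK11 newly under the limit. Deviations of same-numbered arrays correlated at -0.24, -0.12 and 0.06, and those of differently numbered arrays between -0.21 and 0.27. With 3 arrays per genotype, these values cannot show whether the numbers pair the samples. No kinase gene changed direction under any setting run that kept it. The groups of each gene did not overlap, so another pseudocount or a left-out array could not reverse its direction. Filters, the replicate block and the fit without a trend left the log2 fold changes as they were. Only the scalings and the control ratio as a covariate could have reversed a direction. The down-listed genes had no signal above 256. Whether dim signals set their number of calls was not tested.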

Other observations

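Besides the genes described, 2 up-listed probe sets with the kinase annotation carry several genes. The one shared by CRK6 and CRK8, which lie in the same CRK stretch of chromosome 4, had signals of 1288, 2239 and 1899.6 in the OE arrays, against 489.6, 354 and 983 in the KO arrays. Its log2 fold change was 1.64 (SE 0.35), and KO replicate 3 was again the highest KO array. The one titled ARK1, a receptor kinase gene, read 908, 1158 and 1364 in the OE arrays, against 735, 419 and 551 in the KO arrays, without overlap.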
